A study of Mus musculus with 24 samples.

Results

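The interleukin-6 family genes described here comprise 4 cytokines (Il6, Lif, Osm and Clcf1), 4 receptor chains (Il6ra, Il6st, Osmr and Lifr), the transcription factor Stat3 and the feedback inhibitor Socs3. They were chosen with earlier results of these data known and taken by symbol from a named list. All 10 were present among the 24411 genes of the tables. The cytokines of this family act through receptor complexes that share the chain gp130, which is encoded by Il6st. Binding activates JAK kinases, which phosphorylate STAT3, and STAT3 drives transcription of genes that include Socs3, whose product dampens the receptor. In brain, this pathway is known for its part in astrocyte reactivity and in the inflammatory response of microglia.

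As one part of a study of amyotrophic lateral sclerosis, cultured mouse astrocytes and microglia with the SOD1G93A transgene, which models the disease, were compared with wild-type cells at rest and after stimulation. The labels list 24 bulk polyA RNA sequencing libraries, of which 21 in 7 conditions, with 3 libraries in each, were analysed. Quiescent SOD1G93A microglia were not analysed here. The labels do not say whether the 3 libraries of a condition came from separate cultures or animals, so the p-values measure only the spread between these libraries, which may be technical.

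All cells came from wild-type (WT) mice or mice that carry a human SOD1G93A transgene in all tissues, on a C57BL/6J background. Astrocytes came from early postnatal cortex (P5 for WT mice in the methods). They were depleted of cells that bound CD45, BSL I or O4, which mark microglia, endothelial cells and the oligodendrocyte lineage, then selected with HepaCAM and kept in serum-free medium with HBEGF. Quiescent WT and SOD1G93A astrocytes received PBS. Activated WT and SOD1G93A astrocytes received C1q (400 ng/mL) together with the cytokines TNFα (30 ng/mL) and IL-1α (3 ng/mL). Microglia were isolated with Cd11b beads from p7–p10 brain and kept in serum-free medium with TGF-β2, IL-34 and cholesterol. Quiescent WT microglia received PBS, and WT and SOD1G93A microglia of the LPS groups received lipopolysaccharide (LPS) at 50 ng/mL. The stimulus therefore differed between the cell types, so cell type and agent cannot be told apart in any comparison of their responses.

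The libraries held 2016139 to 11570122 reads assigned to genes, with a median of 5098168. Levels are given as normalized counts, which are reads divided by a size factor for each library and can be compared between libraries for 1 gene. They were set on 1 scale here for all 21 libraries, because the deposited tables had been normalized separately. Levels of different genes are compared only as TPM, a unit that takes gene length and depth into account. In bulk RNA, fewer cells of a type and less RNA per cell cannot be told apart.

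In 4 conditions, 1 library stood apart from the other 2, by chi-square per degree of freedom of the reads over genes between libraries. It was 14.0 and 12.8 for library 1 of WT microglia with LPS, against 1.63 between the others, and 15.7 and 20.3 for library 3 of SOD1G93A microglia with LPS, against 2.32. In quiescent astrocytes it was 8.97 and 6.50 for WT library 3, against 2.03, and 6.47 and 9.87 for SOD1G93A library 1, against 2.78. Without WT quiescent astrocyte library 3, 8 members were called on activation of WT astrocytes, as with all libraries, by the tests given with that comparison. Without WT LPS library 1, 8 members were called in WT microglia in place of 7, and without SOD1G93A quiescent library 1, 8 in SOD1G93A astrocytes, as with all libraries.

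The labels were checked against marker genes. The summed TPM of 12 microglia markers was 5300.2 to 19698 in the microglia libraries and 269 to 677 in the astrocyte libraries, with C1qa the most abundant in quiescent WT microglia. The summed TPM of 12 astrocyte markers was 2626 to 4414 in the astrocyte libraries, led by Slc1a3 in WT astrocytes, and 68.9 to 128 in the microglia libraries. The sum in the microglia libraries was led by Gfap. One astrocyte marker on that list, Gjb6, was near absent in every library of both cell types, with at most 3 reads. Astrocyte libraries also held 1471 to 5909 TPM of 11 oligodendrocyte lineage markers, a sum led by Olig1 in WT astrocytes. In WT astrocytes this sum was 4846 ± 15.9 at rest and 1579 ± 33.7 after activation (SD, n = 3), and Mog had 0 reads at rest. The astrocyte marker sum in the same groups was 3752 ± 601 and 2817 ± 4.73 TPM. In SOD1G93A astrocytes the lineage sum was 5474 ± 377 and 1548 ± 68 TPM, and the astrocyte sum 3033 ± 371 and 2669 ± 70.8 TPM. At rest, the lineage sum was thus above the astrocyte sum in both genotypes. Sums for 9 neuron markers were 121 to 257 TPM in astrocyte libraries and 2.7 to 7.5 TPM in microglia libraries. In astrocytes the neuron sum was 237 ± 23.5 TPM at rest and 145 ± 9.3 TPM after activation in WT cells, and 244 ± 6.61 and 126 ± 4.02 TPM in SOD1G93A cells, with Map2 the most abundant in all 12 libraries. The part of these other cells in the results below was not tested.

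Il6 encodes interleukin-6. Its normalized counts were 12.1, 17.1 and 19.1 in quiescent WT astrocytes, 26.7, 29.4 and 23.3 in quiescent SOD1G93A astrocytes, 113, 86.7 and 89.8 in activated WT astrocytes and 59, 65.6 and 59.4 in activated SOD1G93A astrocytes. In microglia they were 28.5, 26.7 and 36.8 in quiescent WT cells, 5389.9, 4698 and 4390.2 in WT cells with LPS and 4083, 4204 and 2789 in SOD1G93A cells with LPS. Every LPS library stood far above every other library, and all activated astrocyte libraries stood above all quiescent ones. From high to low, mean counts were 4826 ± 512 in WT microglia with LPS, 3692 ± 784 in SOD1G93A microglia with LPS, 96.6 ± 14.6 in activated WT astrocytes, 61.3 ± 3.7 in activated SOD1G93A astrocytes, 30.7 ± 5.42 in quiescent microglia, 26.5 ± 3.08 in quiescent SOD1G93A astrocytes and 16.1 ± 3.62 in quiescent WT astrocytes (SD, n = 3). Neighbours in these orders are called overlapping here where the ranges of their libraries overlap, which for Il6 held for quiescent microglia and quiescent SOD1G93A astrocytes. The ranges of the LPS groups were apart, although their means differed by less than the sum of their SDs.

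Lif encodes leukemia inhibitory factor. Lif had normalized counts of 4.02, 6.85 and 16.7 in quiescent WT astrocytes, 10.9, 11.9 and 12.2 in quiescent SOD1G93A astrocytes, 382, 346 and 367 in activated WT astrocytes and 546, 549 and 506 in activated SOD1G93A astrocytes. Microglia had 13.7, 7.27 and 13.2 at rest, 370.4, 485 and 454 in WT cells with LPS and 353, 350.1 and 160.1 in SOD1G93A cells with LPS. All stimulated libraries of both cell types lay above all quiescent libraries, and the third SOD1G93A LPS library was the lowest of the stimulated ones. Mean Lif counts were 534 ± 24 in activated SOD1G93A astrocytes, 436 ± 59.2 in WT microglia with LPS, 365 ± 18.2 in activated WT astrocytes, 288 ± 111 in SOD1G93A microglia with LPS, 11.7 ± 0.724 in quiescent SOD1G93A astrocytes, 11.4 ± 3.55 in quiescent microglia and 9.19 ± 6.65 in quiescent WT astrocytes (SD, n = 3). In range, WT microglia with LPS overlapped activated WT astrocytes, these overlapped SOD1G93A microglia with LPS, and the 3 quiescent conditions overlapped.

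Osm encodes oncostatin M. Its normalized counts were 126, 102 and 131 in quiescent microglia, 1278, 1263 and 1201 in WT microglia with LPS and 1159.6, 1149 and 711 in SOD1G93A microglia with LPS. Astrocyte libraries held few reads of Osm, namely 0, 3 and 14 in quiescent WT, 27, 13 and 7 in quiescent SOD1G93A, 8, 16 and 3 in activated WT and 8, 2 and 1 in activated SOD1G93A cells. All microglia libraries stood above all astrocyte libraries. Mean Osm counts were 1247 ± 41.1 in WT microglia with LPS, 1006 ± 256 in SOD1G93A microglia with LPS and 119 ± 15.5 in quiescent microglia, followed by 9.38 ± 2.53 in quiescent SOD1G93A, 6.27 ± 3.86 in activated WT, 4.5 ± 4.12 in activated SOD1G93A and 3.37 ± 3.34 in quiescent WT astrocytes (SD, n = 3). The 4 astrocyte conditions overlapped with their neighbours. The LPS groups were apart in range, but their means were within the sum of their SDs. Beside the low Osm level of astrocytes, the summed TPM of microglia markers was 592 ± 128 in quiescent SOD1G93A astrocytes, 409.7 ± 141 in quiescent WT astrocytes, 405 ± 143 in activated WT astrocytes and 337 ± 70.8 in activated SOD1G93A astrocytes, and its part in that level was not tested.

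Clcf1 encodes cardiotrophin-like cytokine factor 1. Clcf1 had normalized counts of 22.1, 29.7 and 44.8 in quiescent WT astrocytes, 20.3, 27.2 and 19.6 in quiescent SOD1G93A astrocytes, 619, 449.7 and 379 in activated WT astrocytes and 356, 348 and 274 in activated SOD1G93A astrocytes. Microglia had 10.1, 2.42 and 9.65 at rest, 112, 92.7 and 109 in WT cells with LPS and 81.6, 93 and 48.4 in SOD1G93A cells with LPS. Activated astrocytes were highest, and quiescent microglia were lowest, with 17, 1 and 11 reads. Mean Clcf1 counts were 483 ± 123 in activated WT and 326 ± 45 in activated SOD1G93A astrocytes, 105 ± 10.5 in WT and 74.3 ± 23.2 in SOD1G93A microglia with LPS, 32.2 ± 11.6 in quiescent WT and 22.4 ± 4.16 in quiescent SOD1G93A astrocytes, and 7.39 ± 4.31 in quiescent microglia (SD, n = 3). Ranges overlapped between the LPS groups and between the quiescent astrocyte groups, and the means of the activated groups were within the sum of their SDs. An annotated transcript, AC109138.7, shares exon sequence with Clcf1 on the same strand, so its counts are uncertain.

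Il6ra encodes the chain that binds interleukin-6 itself. Its normalized counts were 375, 269 and 326 in quiescent microglia, 88.3, 150.3 and 141 in WT microglia with LPS and 138, 145 and 113 in SOD1G93A microglia with LPS. In astrocytes they were 18.1, 14.8 and 26.7 in quiescent WT, 16.3, 11.9 and 6.12 in quiescent SOD1G93A, 124, 109.6 and 114 in activated WT and 97.2, 85.3 and 131 in activated SOD1G93A cells. Quiescent microglia stood above, and quiescent astrocytes below, a shared range of the stimulated cells of both types. The means were 323 ± 52.8 in quiescent microglia, 132 ± 16.4 in SOD1G93A and 126 ± 33.4 in WT microglia with LPS, 116 ± 7.45 in activated WT and 105 ± 23.8 in activated SOD1G93A astrocytes, 19.9 ± 6.12 in quiescent WT and 11.4 ± 5.09 in quiescent SOD1G93A astrocytes (SD, n = 3). Neighbours overlapped among the 4 stimulated conditions and between the 2 groups of quiescent astrocytes. Il6ra has an annotated antisense transcript, Gm42809, and although the library kit keeps strand, the use of strand in counting is not given in the sources used here. Reads of the pair may therefore be shared.

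Il6st, the gp130 chain, varied least. Its condition means ran from 696 ± 45 normalized counts in SOD1G93A microglia with LPS, 729.9 ± 209.8 in WT microglia with LPS, 765 ± 118 in quiescent SOD1G93A astrocytes, 777 ± 25.6 in quiescent microglia and 836 ± 85 in quiescent WT astrocytes to 944 ± 47.6 in activated WT and 967 ± 51.6 in activated SOD1G93A astrocytes (SD, n = 3). The ranges of all neighbouring conditions overlapped.

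Osmr encodes the oncostatin M receptor. Osmr stood at normalized counts of 22.1, 24 and 44.8 in quiescent WT astrocytes, 20.8, 19.8 and 20.8 in quiescent SOD1G93A astrocytes, 616, 562 and 510.0 in activated WT astrocytes and 422, 485 and 408 in activated SOD1G93A astrocytes. Microglia had 12.5, 17 and 7.89 at rest, 17.1, 11.2 and 7.57 in WT cells with LPS and 14.6, 16.2 and 3.34 in SOD1G93A cells with LPS. Activated astrocytes stood apart above all other libraries, and all microglia libraries were low. Mean Osmr counts were 563 ± 53.1 in activated WT, 438 ± 41.3 in activated SOD1G93A, 30.3 ± 12.6 in quiescent WT and 20.5 ± 0.584 in quiescent SOD1G93A astrocytes, followed by 12.4 ± 4.54 in quiescent microglia, 12 ± 4.83 in WT microglia with LPS and 11.4 ± 7.02 in SOD1G93A microglia with LPS (SD, n = 3). The 3 microglia conditions overlapped, and the means of the quiescent astrocyte groups were within the sum of their SDs although their ranges were apart.

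Lifr encodes the receptor for leukemia inhibitory factor. Lifr stood at normalized counts of 396, 367 and 312 in quiescent WT astrocytes, 497, 449.7 and 516 in quiescent SOD1G93A astrocytes, 138, 139 and 171 in activated WT astrocytes and 155, 129 and 174 in activated SOD1G93A astrocytes. Microglia had 69.5, 65.5 and 60.5 at rest, 24.9, 30.9 and 16.7 in WT cells with LPS and 21.9, 29.3 and 20.0 in SOD1G93A cells with LPS. Astrocytes were above microglia throughout, and quiescent cells were above stimulated cells of the same type. Mean Lifr counts were 487 ± 34 in quiescent SOD1G93A, 358 ± 42.7 in quiescent WT, 153 ± 22.6 in activated SOD1G93A and 149 ± 18.4 in activated WT astrocytes, followed by 65.2 ± 4.48 in quiescent microglia, 24.1 ± 7.15 in WT and 23.8 ± 4.92 in SOD1G93A microglia with LPS (SD, n = 3). Activated astrocytes of the 2 genotypes overlapped, as did the LPS groups.

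Stat3 encodes the transcription factor that these receptors activate. For Stat3, normalized counts were 683, 750.4 and 951 in quiescent WT astrocytes, 707, 615 and 603 in quiescent SOD1G93A astrocytes, 2293, 2117 and 2214 in activated WT astrocytes and 2028, 1924 and 1948 in activated SOD1G93A astrocytes. Microglia had 1008, 997 and 961 at rest, 1747, 2074 and 2070.1 in WT cells with LPS and 1719.9, 1879 and 1469 in SOD1G93A cells with LPS. All stimulated libraries were above all quiescent libraries. Mean Stat3 counts were 2208 ± 88 in activated WT and 1967 ± 54.5 in activated SOD1G93A astrocytes, 1964 ± 187 in WT and 1689.5 ± 207 in SOD1G93A microglia with LPS, 988 ± 24.7 in quiescent microglia, 795 ± 139.6 in quiescent WT and 642 ± 57 in quiescent SOD1G93A astrocytes (SD, n = 3). Activated SOD1G93A astrocytes overlapped with WT microglia with LPS, and these with SOD1G93A microglia with LPS, as did the quiescent astrocyte groups with each other. The other neighbours in this order were apart. Exons of Stat5a lie antisense to Stat3, so reads of these genes may be shared if the counting did not use the strand that the kit keeps.

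Socs3 encodes the feedback inhibitor. For Socs3, normalized counts were 32.2, 68.5 and 63.4 in quiescent WT astrocytes, 68.3, 63.9 and 55.1 in quiescent SOD1G93A astrocytes, 210.1, 261 and 228 in activated WT astrocytes and 194, 156 and 139 in activated SOD1G93A astrocytes. Microglia had 124, 112 and 118 at rest, 7238, 7110.4 and 7208 in WT cells with LPS and 6161, 6038 and 3988 in SOD1G93A cells with LPS. As for Il6, the LPS libraries were far above the rest, and the third SOD1G93A LPS library was the lowest of them. Mean Socs3 counts were 7186 ± 66.6 in WT and 5396 ± 1221 in SOD1G93A microglia with LPS, 233 ± 25.7 in activated WT and 163 ± 28.2 in activated SOD1G93A astrocytes, 118 ± 6.28 in quiescent microglia, 62.4 ± 6.7 in quiescent SOD1G93A and 54.7 ± 19.7 in quiescent WT astrocytes (SD, n = 3). The quiescent astrocyte groups overlapped, and the other neighbours did not.

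**Figure D1:**
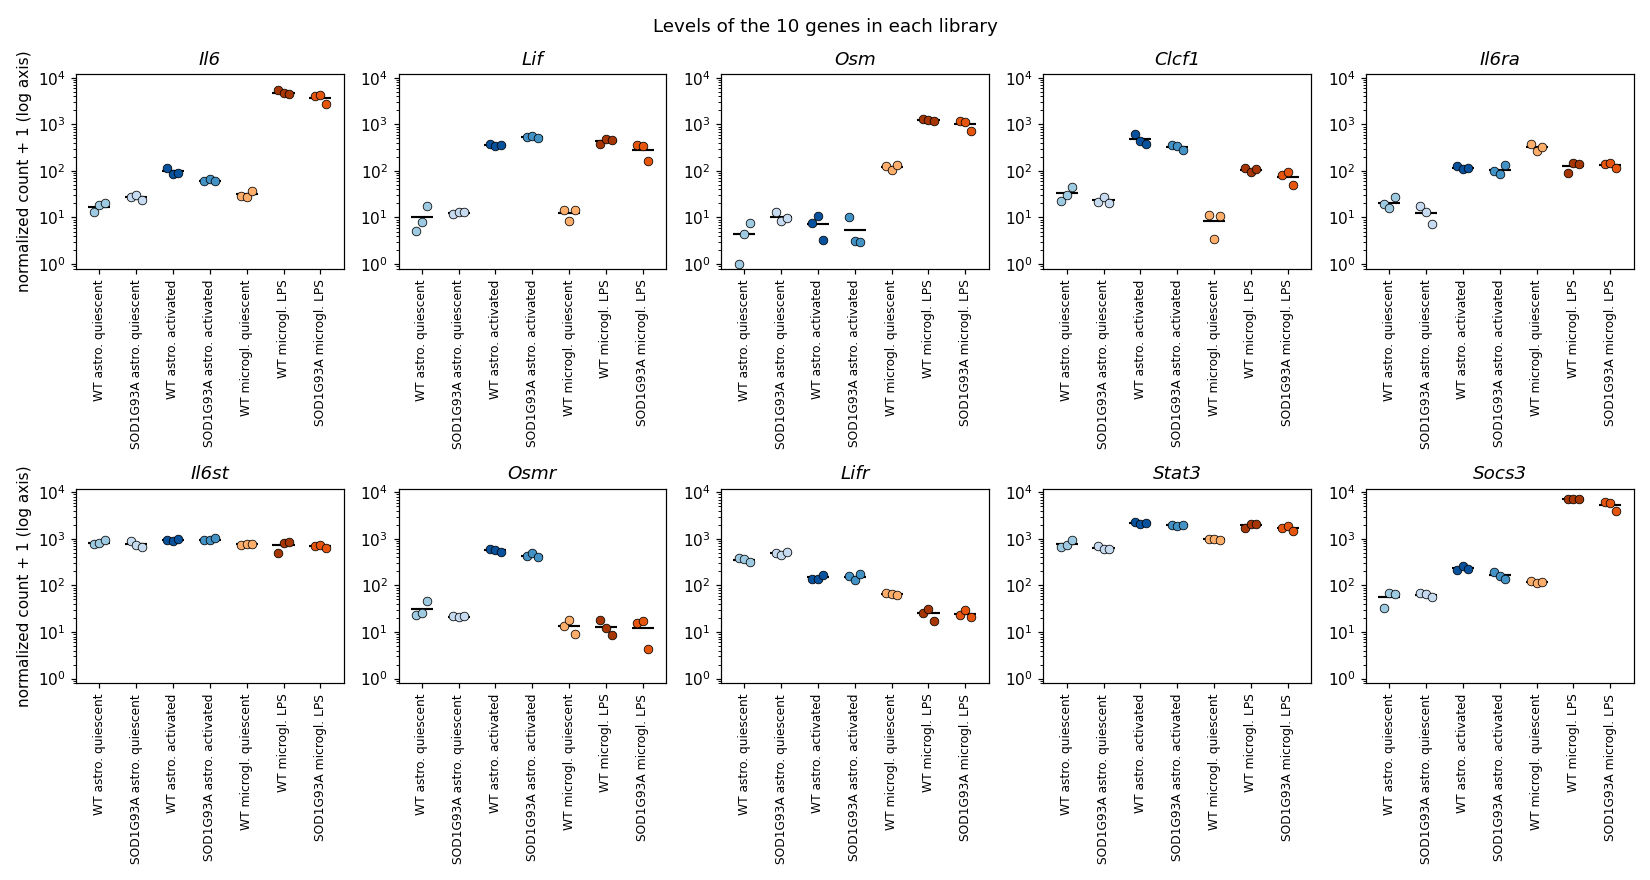
Normalized count plus 1 (log axis) of the 10 genes, with 1 point for each of the 3 libraries of a condition and a bar at the mean. Il6 and Socs3 were highest in microglia with LPS (means of 4826 and 7186 in WT cells), Osmr and Clcf1 in activated astrocytes (means of 563 and 483 in WT cells), and Il6st lay at similar levels throughout.

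Per length, Stat3 and Il6st were the most abundant of the 10 transcripts at rest. In quiescent WT astrocytes, TPM values were 76.9 ± 13.2 for Stat3, 69.4 ± 6.75 for Il6st and 30.6 ± 3.74 for Lifr, against 2.12 ± 0.64 for Il6ra and 2.3 ± 0.945 for Osmr (SD, n = 3). In quiescent microglia, TPM values were 60.2 ± 2.04 for Stat3, 40.6 ± 0.951 for Il6st, 30.6 ± 4.51 for Osm and 21.8 ± 4.01 for Il6ra, against 3.51 ± 0.274 for Lifr and 0.594 ± 0.207 for Osmr. Of the receptor chains other than Il6st, the one with the highest TPM was thus Lifr in astrocytes and Il6ra in microglia at rest.

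After stimulation, the order of TPM values changed. In activated WT astrocytes, Stat3 was at 204 ± 8.71 TPM, Clcf1 at 112 ± 29.3, Il6st at 74.9 ± 3.47 and Lif at 74 ± 3.87. Below these were Socs3 at 71 ± 7.79, Osmr at 41 ± 4.16 and Il6 at 35.1 ± 5.49. In WT microglia with LPS, Socs3 reached 1128 ± 39.2 TPM, Il6 899.9 ± 60.0 and Osm 249 ± 6.78. Stat3 was at 93.8 ± 12.4, Lif at 45.7 ± 7.72, Il6st at 30.1 ± 9.57 and Clcf1 at 12.5 ± 1.09. The cytokine with the highest TPM was Clcf1 in activated WT astrocytes, Lif in activated SOD1G93A astrocytes at 104 ± 7.01, and Il6 in microglia with LPS.

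The response of WT astrocytes to IL-1α, TNFα and C1q was tested with limma over the 12336 genes that reached 10 normalized counts on average, and a gene was called at a Benjamini-Hochberg adjusted p under 0.001 and a log2 fold change beyond 1. Fold changes are differences of log2(normalized count + 1), which understate the change of low genes. Of the 9 members tested, 8 were called, against 11.5% of all genes. The 7 that rose compare with 6% of all genes called higher, and the 1 that fell with 5.54% called lower. Osm had too few reads to be tested. Members and the other gene lists were chosen with earlier results of these data known. All counts set beside shares of all genes in this report are therefore descriptions and not support. The median log2 fold change was 2.55 over the 9 members and 0.01 over all genes tested. A gene that is low in 1 group can reach the minimum mean through the other group alone, and then had to differ. Each comparison was therefore also tested over genes that reached 10 normalized counts on average in each group compared, a filter chosen after seeing the data. With it, 8 of 9 members were called here, against 5.31% of all 11890 genes called higher and 5.42% lower.

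Among the cytokines, Lif rose by a log2 fold change of 5.41 ± 0.35 (SE, limma adjusted p = 6.20e-07) in activated WT astrocytes, Clcf1 by 3.91 ± 0.23 (adjusted p = 3.36e-07) and Il6 by 2.55 ± 0.21 (adjusted p = 3.57e-06). The 3 activated libraries lay above the 3 quiescent ones for each of them. How often libraries were apart among all genes was not counted in any comparison, so such statements are descriptions. Quiescent WT astrocytes held only 2, 6 and 35 reads of Lif. Of the receptors, Osmr rose by 4.26 ± 0.22 (adjusted p = 1.07e-07) and Il6ra by 2.55 ± 0.21 (adjusted p = 3.26e-06). Lifr fell, with a log2 fold change of -1.24 ± 0.13 (adjusted p = 2.03e-05), again without overlap of the groups. The shared chain Il6st was not called, at 0.20 ± 0.09 (adjusted p = 0.111). Stat3 rose by 1.50 ± 0.11 (adjusted p = 1.33e-06) and Socs3 by 2.16 ± 0.24 (adjusted p = 2.87e-05). The call of Socs3 was lost in limma without an intensity trend, where its adjusted p was 0.00117 (range over the alternatives 6.51e-21 to 0.00117). The sum of microglia markers was similar in these groups, at 409.7 ± 141 TPM at rest and 405 ± 143 TPM after activation. The sum of 8 endothelial markers was 3.79 ± 0.946 TPM at rest and 41.6 ± 2.31 TPM after activation, led by Flt1, with Cldn5 at 0 reads in all 6 libraries. For 9 markers of pericytes and fibroblasts it was 8.7 ± 2.79 and 52.1 ± 6.56 TPM, led after activation by Lum, with Kcnj8 at 0 reads in all 6 libraries. The part of these markers in the response was not tested.

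Other genes of the gp130, JAK and STAT pathway were tested in the same comparison. Of 29 such genes in WT astrocytes, 4 rose and 0 fell by limma, against 6% of all genes called higher and 5.54% lower. Their median log2 fold change was 0.27, against 0.01 over all genes. Il11 and Stat5a, of these 4, reached the minimum mean through the activated libraries alone and add no support. Of the 25 with 10 in each group, 2 rose and 0 fell, with a median of 0.20. DESeq2, which was run on all 37 listed pathway genes, 25 listed STAT3 targets and 10 members in each comparison, without the minimum mean, had 5 higher and 0 lower. EdgeR, run with that minimum, had 5 and 0. In limma, 18 of the 29 had an unadjusted p under 0.05, against 5774 of all 12336 genes. The 4 were the cytokine gene Il11, Stat5a at 3.99 ± 0.30 (adjusted p = 1.71e-06), the phosphatase gene Ptpn2 at 1.45 ± 0.10 (adjusted p = 1.18e-06) and the inhibitor Socs5 at 1.11 ± 0.14 (adjusted p = 1.02e-04). Il11 had 0 to 3 reads in quiescent libraries, and the ratio of summed reads was 27.3 (95% counting interval 9.05 to 134). Such intervals cover counting error only. Socs5 was not called without quiescent library 2, at 0.94, activated library 1, at 1.12, or activated library 3, at 1.11 (adjusted p range over tools and left-out libraries 3.09e-09 to 0.0013). Il11 lost its call without activated library 2 or 3, and was below the minimum mean without activated library 1. Cntf was called by DESeq2 and edgeR, and by limma without quiescent library 1 or 3, at 2.54 and 2.33, in place of 2.20 ± 0.41. The count of 4 was 2 without activated library 1 and 2 without activated library 3.

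Of 23 tested genes that are widely described as STAT3 targets, 15 rose and 0 fell in activated WT astrocytes by limma, against 6% of all genes called higher and 5.54% lower. Their median log2 fold change was 2.13, against 0.01 over all genes. Bcl3 reached the minimum mean through the activated libraries alone, and over genes with 10 in each group 14 of 22 rose and 0 fell, with a median of 1.97. Without that filter, DESeq2 had 15 of 25 higher and edgeR 15 of 23, each with 0 lower. In limma, 19 of the 23 had an unadjusted p under 0.05, against 5774 of all 12336 genes. The largest rises were those of Lcn2, which encodes lipocalin-2, at 6.70 ± 0.14 (adjusted p = 5.76e-10), the NF-κB regulator Bcl3 at 6.01 ± 0.24 (adjusted p = 1.62e-08), the metalloproteinase inhibitor Timp1 at 5.94 ± 0.16 (adjusted p = 1.79e-09), the transcription factor Cebpd at 5.01 ± 0.14 (adjusted p = 1.79e-09) and the protease inhibitor Serpina3n at 4.79 ± 0.19 (adjusted p = 2.07e-08). Many of these genes are also targets of NF-κB, and STAT3 activity itself was not measured.

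With LPS, 7 of 10 members were called in WT microglia, against 20.8% of all 10866 genes tested. The 5 that rose compare with 10.2% of all genes called higher and the 2 that fell with 10.6% called lower. On the scale of their table, Lif and Clcf1 were below 10 normalized counts on average at rest and reached the minimum mean through the LPS libraries, so their rises add no support to that count. Over genes with 10 in each group, 3 of 8 members rose and 2 fell, against 8.92% of all 10201 genes called higher and 9.65% lower, and the median log2 fold change was 0.47 over these members and 0.01 over all genes. With Lif and Clcf1 the median was 2.19, which is a description.

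All 4 cytokines rose in microglia with LPS, led by Il6 at 7.26 ± 0.13 (SE, limma adjusted p = 4.66e-11). Lif rose by 5.17 ± 0.23 (adjusted p = 1.91e-08), Clcf1 by 3.80 ± 0.40 (adjusted p = 1.63e-05) and Osm by 3.38 ± 0.11 (adjusted p = 2.19e-09). Socs3 rose by 5.92 ± 0.08 (adjusted p = 2.19e-11). For these 5 genes, all LPS libraries were above all quiescent ones. Il6ra fell at -1.37 ± 0.20 (adjusted p = 2.04e-04) and Lifr at -1.43 ± 0.24 (adjusted p = 5.37e-04), while Il6st at -0.13 ± 0.19 and Osmr at -0.06 ± 0.41 were not called (adjusted p = 0.578 and 0.919). The signs of these 2 small changes were not stable, since Osmr was at 0.01 with quantile normalization and Il6st at 0.14 without LPS library 1. With a pseudocount of 5, the rise of Clcf1 was 3.13. Stat3 was at 0.99 ± 0.09 (adjusted p = 6.20e-06) and missed the call by its fold change.

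The calls of the 2 falls with LPS depended on single libraries. That of Lifr was lost without quiescent library 1, 2 or 3 and without LPS library 3, at log2 fold changes of -1.38, -1.42, -1.48 and -1.19 in place of -1.43, and adjusted p of 0.00444, 0.00352, 0.00226 and 0.0011 (range over the alternatives 1.23e-04 to 0.00444). It was also lost with quantile normalization, without an intensity trend and with a term for depth. The call of Il6ra was lost without quiescent library 1, at -1.26 in place of -1.37 and an adjusted p of 0.00183, and without an intensity trend (range 3.68e-10 to 0.00254). Stat3 was called without quiescent library 2, at 1.00, without LPS library 1, at 1.08, and with TMM scaling, at 1.00 (adjusted p range 5.52e-16 to 3.22e-04).

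Of 29 other pathway genes tested in microglia, 9 rose and 2 fell with LPS by limma, against 10.2% and 10.6% of all genes, with a median log2 fold change of 0.34. Cish, Socs1, Il27 and Il11, of the 9, reached the minimum mean through the LPS libraries alone and add no support. Of the 25 with 10 in each group, 5 rose and 2 fell, with a median of 0.27. The largest rises were in Cish at 5.95 ± 0.26 (adjusted p = 1.98e-08), Socs1 at 5.09 ± 0.38 (adjusted p = 1.04e-06), Stat2 at 3.07 ± 0.09 (adjusted p = 7.93e-10), and the cytokine genes Il27 and Il11. Cish and Socs1 encode inhibitors of the same family as Socs3. Il27 had 0 or 1 read in quiescent libraries and Il11 had 0 or 1, and the ratios of summed reads were 182 (95% counting interval 50.03 to 1513) and 85.8 (14.9 to 3437). Socs6 fell at -1.85 ± 0.10 (adjusted p = 1.12e-07), and so did Adam10, which encodes a sheddase, at -1.70 ± 0.10 (adjusted p = 1.46e-07).

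Of 25 STAT3 target genes tested, 15 rose and 2 fell with LPS by limma, against 10.2% and 10.6% of all genes, with a median log2 fold change of 2.00. Batf and Il10 reached the minimum mean through the LPS libraries alone, and over genes with 10 in each group 13 of 23 rose and 2 fell, with a median of 1.31. The largest rises were in the acute phase gene Saa3 at 7.58 ± 0.17 (adjusted p = 1.57e-10), the transcription factor Batf at 6.59 ± 0.42 (adjusted p = 3.29e-07), the kinase Pim1 at 4.60 ± 0.10 (adjusted p = 1.68e-10), Ier3 at 4.33 ± 0.14 (adjusted p = 1.90e-09) and the cytokine Il10. Il10 had 0 to 3 reads in quiescent libraries, with a ratio of summed reads of 159 (95% counting interval 61.6 to 585). The cell cycle gene Ccnd1 fell at -3.83 ± 0.10 (adjusted p = 4.99e-10) and Myc at -1.58 ± 0.12 (adjusted p = 1.22e-06). Microglia markers fell in sum from 19159.6 ± 533 TPM at rest to 5547 ± 324 TPM with LPS. Oligodendrocyte lineage markers were at 467 ± 8.25 TPM at rest, led by Cspg4, and 88.8 ± 3.03 TPM with LPS. The sum of 6 markers of peripheral macrophages and monocytes was 3.46 ± 0.864 TPM at rest and 10.02 ± 0.635 TPM with LPS, where Ly6c2 led, and Lyve1 and Cd163 were at 0 reads in all 6 libraries. Markers of pericytes and fibroblasts were at 3.83 ± 1.86 TPM at rest, led by Col1a1, and 10.3 ± 1.4 TPM with LPS, led by Dcn, with Kcnj8 at 0 reads in all 6 libraries. The part of these markers in the results was not tested.

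**Figure D2:**
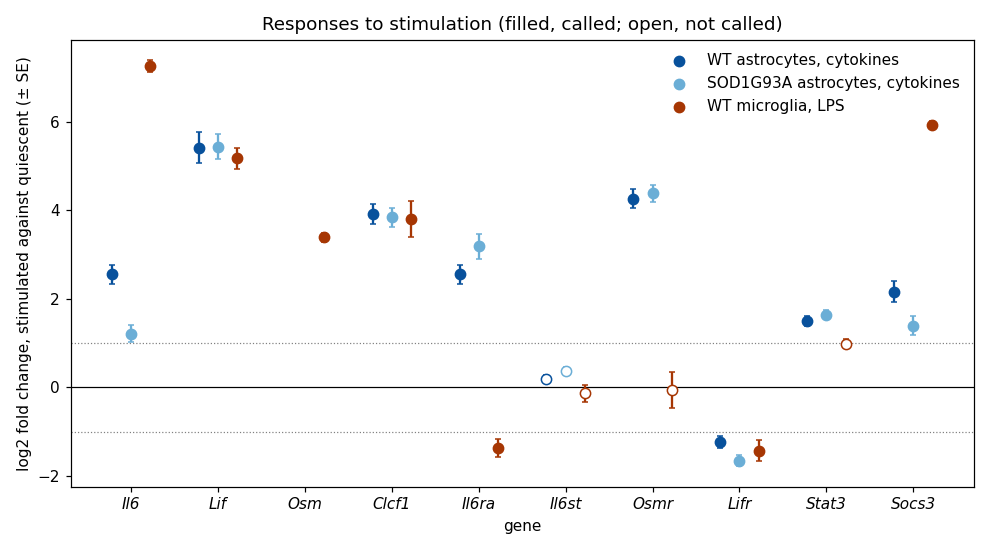
Log2 fold change of each member on stimulation (point) with its SE (bar) in WT astrocytes, SOD1G93A astrocytes and WT microglia, with dotted lines at −1 and 1. Filled points passed the call, and Osm has a value for microglia only. Lif and Clcf1 each had similar values in the 3 comparisons (5.41, 5.43 and 5.17 for Lif), while Osmr was at 4.26 in WT astrocytes and −0.06 in microglia.

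The responses of the cell types were compared in 1 fit of the 12 WT libraries, as the LPS response minus the cytokine response. Of the 10 members, 4 were called, against 15.2% of all 12334 genes tested (6.73% higher and 8.44% lower). The response of Il6 was larger in microglia by 4.74 ± 0.25 (SE, limma adjusted p = 4.96e-09) and that of Socs3 by 3.79 ± 0.29 (adjusted p = 1.27e-07). The response of Osmr differed by -4.29 ± 0.47 (adjusted p = 4.63e-06) and that of Il6ra by -3.89 ± 0.32 (adjusted p = 2.82e-07), both towards astrocytes. Il6ra rose in astrocytes and fell in microglia in the separate comparisons, which share these libraries. Of 32 other pathway genes tested in that fit, 6 responses were called higher in microglia and 4 lower, and of 25 STAT3 targets 7 and 11. Over genes with 10 in each of the 4 groups, these were 3 and 3 of 21 pathway genes and 5 and 10 of 22 targets, against 6.29% and 9.07% of all genes, and 4 of 7 members.

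The other 6 members did not pass in that fit. The difference for Lif was -0.17 ± 0.50, for Clcf1 -0.05 ± 0.54, for Lifr -0.17 ± 0.27, for Il6st -0.30 ± 0.23 and for Stat3 -0.49 ± 0.16 (adjusted p = 0.0235 for Stat3). The signs for Lif, Clcf1 and Lifr changed under some settings, among them DESeq2 for Lif (0.18), a pseudocount of 0.5 for Clcf1 (0.04) and quantile normalization for Lifr (0.39). Osm was at 2.40 ± 0.81 (adjusted p = 0.0279) and passed the minimum mean through microglia alone. It was called without quiescent WT astrocyte library 1, which held 0 reads of Osm, at 3.24 (adjusted p = 2.34e-04), with DESeq2 and edgeR, and with a pseudocount of 5 (adjusted p range 2.07e-08 to 0.119). Quantile normalization changed the size of 3 called differences, to 3.44 for Il6, -5.01 for Osmr and 2.72 for Socs3.

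Levels of the cell types were compared in the same fit. At rest, 5 of 10 members differed, against 47.6% of all genes, so the share was near the background (22% higher in microglia and 25.6% lower). Osm, which is among the 5, had 0, 3 and 14 reads in quiescent WT astrocytes and passed the minimum mean through microglia alone. It therefore had to differ, and its difference of 5.22 is a description. Clcf1 was below that mean in quiescent microglia, and its difference is likewise a description. Over genes with 10 in each of these groups, 3 of 7 members differed, against 21.7% of all genes higher and 19% lower. Il6ra was higher in microglia by 3.996 ± 0.23 (adjusted p = 4.44e-10) and Socs3 by 1.18 ± 0.20 (adjusted p = 9.17e-05). Lifr was lower at -2.42 ± 0.19 (adjusted p = 2.34e-08) and Clcf1 at -2.10 ± 0.38. Without quiescent astrocyte library 1, Osm was at 4.37 and Socs3 lost its call at 0.84 (adjusted p = 5.08e-06, range 2.60e-09 to 7.56e-04). Without library 3 of that group, Osm was at 5.84, Clcf1 lost its call at -1.84 (adjusted p = 0.00116, range 4.77e-07 to 0.0312), and Il6 gained one at 1.04. Il6, at 0.91 ± 0.18 (adjusted p = 2.94e-04), was also called without quiescent microglia library 2, at 1.00. It was called with TMM scaling as well, at 1.04, and with quantile normalization, at 1.84.

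With a pseudocount of 5, the difference for Osm at rest was 3.98. Quantile normalization also ended the call of Clcf1, at -0.87, and gave one to Lif, at 1.50 in place of 0.44 ± 0.35. Osmr at -1.20 ± 0.33 (adjusted p = 0.00407) was called by DESeq2 and edgeR. Stat3 at 0.34 ± 0.11 and Il6st at -0.09 ± 0.17 were not called, and their signs changed with quantile normalization (-0.15) and TMM scaling (0.04). TMM scaling moved the median of all genes by 0.12 in this comparison.

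Between stimulated cells, 6 of 10 members differed, against 50.4% of all genes (22.7% higher in microglia and 27.8% lower). Osm is again among them, with 8, 16 and 3 reads in activated WT astrocytes, so that it had to differ, and its difference of 7.61 is a description. Over genes with 10 in each of these groups, 5 of 9 members differed, against 23% of all genes higher and 19.7% lower. Il6 was higher in WT microglia with LPS than in activated WT astrocytes by 5.65 ± 0.18 (adjusted p = 9.56e-13) and Socs3 by 4.97 ± 0.20 (adjusted p = 1.15e-11). Osmr was lower at -5.48 ± 0.33 (adjusted p = 8.46e-10), Lifr at -2.60 ± 0.19 (adjusted p = 1.00e-08) and Clcf1 at -2.15 ± 0.38 (adjusted p = 1.07e-04). Clcf1 lost its call without activated library 1, at -1.95 (adjusted p = 0.00102, range 6.74e-20 to 0.00102). Lif at 0.27 ± 0.35, Il6ra at 0.11 ± 0.23, Il6st at -0.39 ± 0.17 and Stat3 at -0.15 ± 0.11 were not called. With quantile normalization, Il6st and Stat3 were called, at -1.04 and -1.04, Lif changed sign, at -0.15, and Socs3 was at 4.31. Osm was at 6.88 with a pseudocount of 5.

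SOD1G93A astrocytes were compared with WT astrocytes at rest and after activation. At rest, limma called 0 of 9 members and 0% of all 12271 genes, and DESeq2 and edgeR also called 0 members, with 5 and 0 of all genes. An unadjusted p under 0.05 was reached by 3 members in limma, 2 in DESeq2 and 6 in edgeR, and among all genes by 1068, 770 and 1194. The 3 members in limma were Il6 at 0.70 ± 0.26 (limma adjusted p = 0.498), Lifr at 0.45 ± 0.12 (limma adjusted p = 0.368) and Stat3 at -0.30 ± 0.12 (limma adjusted p = 0.517). Over the alternatives, the adjusted p ranged from 0.199 to 0.99997 for Il6, 0.00544 to 0.994 for Lifr and 0.0301 to 0.994 for Stat3. On the scale of their own table, WT and SOD1G93A libraries were apart for 4 of the 9 members, namely these 3 and Osmr. They were also apart for Osm, which was not tested. For Stat3 they overlapped on the scale of all 21 libraries used above. How many of all genes had libraries apart was not counted, so this is a description. The remaining differences ran from -0.81 for Il6ra to 0.52 for Lif, with Osmr at -0.48, Clcf1 at -0.47, Il6st at -0.14 and Socs3 at 0.25. Single libraries moved these values. Without WT library 3, which stood apart, Lif was at 1.01, Clcf1 at -0.23, Osmr at -0.19, Socs3 at 0.38 and Stat3 at -0.18. Without WT library 1, Lif was at 0.12 and Socs3 at -0.07, and without SOD1G93A library 3, Il6ra was at -0.46. The sum of oligodendrocyte lineage markers was 4846 ± 15.9 TPM in WT and 5474 ± 377 TPM in SOD1G93A cells at rest, that of endothelial markers 3.79 ± 0.946 and 2.78 ± 0.106 TPM and that of pericyte and fibroblast markers 8.7 ± 2.79 and 6.19 ± 0.516 TPM. None of these 3 sums overlapped between the genotypes, and their part in these values was not tested. Flt1 led the endothelial sum in all 6 libraries, with Cldn5 at 0 reads. Of 26 other pathway genes and 22 STAT3 targets tested by limma and edgeR, and the 37 and 25 tested by DESeq2, 0 were called by any of the 3 tools, and an unadjusted p under 0.05 was reached by 2 and 4 in limma and by 1 and 4 in each of the other tools.

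After activation, limma and edgeR called 0 of 9 members between the genotypes and DESeq2 0 of 10, against 0.645% of all 12098 genes with limma. An unadjusted p under 0.05 was reached by 6 members with each tool, and among all genes by 2464 in limma, 1605 in DESeq2 and 2444 in edgeR. Lif was higher in all 3 SOD1G93A libraries, at a log2 fold change of 0.55 ± 0.07 (adjusted p = 3.48e-05), which is below the fold change limit. Il6 was at -0.63 ± 0.15 (adjusted p = 0.0111), Clcf1 at -0.54 ± 0.13 (adjusted p = 0.0131), Socs3 at -0.51 ± 0.12 (adjusted p = 0.0092) and Osmr at -0.35 ± 0.08 (adjusted p = 0.0119), each lower in all 3 SOD1G93A libraries. These 5 genes had an adjusted p under 0.05, with none beyond a log2 fold change of 1. The share of all genes under that limit was not counted, so the 5 are a description. For Lif alone, the adjusted p stayed under 0.05 in all alternatives run. It ranged over the alternatives from 1.06e-07 to 0.0297 for Lif, 0.00394 to 0.134 for Il6, 1.28e-06 to 0.239 for Clcf1, 5.56e-04 to 0.152 for Socs3 and 5.29e-04 to 0.179 for Osmr. Limma without an intensity trend put the last 4 above 0.05, and DESeq2 did so for Il6 and Clcf1. Single libraries did so as well, namely WT library 1 for Il6, Clcf1 and Osmr (at -0.51, -0.34 and -0.28 without it), WT library 2 for Socs3 and Osmr (-0.43 and -0.35), and SOD1G93A library 3 for Clcf1 (-0.41). Stat3 was at -0.16 ± 0.06 (adjusted p = 0.107), and was likewise lower in all 3 SOD1G93A libraries. Il6ra was at -0.16 ± 0.14, Il6st at 0.04 ± 0.06 and Lifr at 0.03 ± 0.12. How many of all genes had libraries apart in this way was not counted. The sums of 4 marker lists also differed between these groups without overlap, at 2817 ± 4.73 TPM in WT and 2669 ± 70.8 TPM in SOD1G93A cells for astrocytes, 41.6 ± 2.31 and 32.1 ± 1.77 TPM for endothelial cells, 52.1 ± 6.56 and 37.3 ± 2.41 TPM for pericytes and fibroblasts, and 145 ± 9.3 and 126 ± 4.02 TPM for neurons. Flt1 led the endothelial sum in all 6 libraries, with Cldn5 and Cdh5 at 0 reads. Lum led that of pericytes and fibroblasts, with Abcc9 at 0 reads in all 6. The part of these marker lists in these values was not tested.

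Of 29 other pathway genes tested, 2 were higher in activated SOD1G93A than WT astrocytes and 0 were lower, against 0.521% and 0.124% of all genes, with 7 at an unadjusted p under 0.05 in limma. By DESeq2 1 of 37 was higher and 0 lower, and by edgeR 2 of 29 and 0. Of these, Stat2 was at 1.02 ± 0.15 (adjusted p = 1.10e-04), with normalized counts of 282 ± 94.9 in SOD1G93A and 134 ± 6.1 in WT cells (SD, n = 3). Stat2 was not called by DESeq2, nor without SOD1G93A library 1, at 0.77, SOD1G93A library 2, at 1.11, or WT library 3, at 1.00 (adjusted p range over tools and left-out libraries 5.10e-06 to 0.00324). Of 23 STAT3 target genes tested by limma and edgeR, and the 25 tested by DESeq2, 0 were called by any of the 3 tools, and 12 had an unadjusted p under 0.05 in limma, 11 in DESeq2 and 12 in edgeR.

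The response of SOD1G93A astrocytes to the 3 factors was estimated in 1 fit of the 12 astrocyte libraries. Of 9 members, 8 were called, against 13.3% of all 12269 genes, with 7 higher (6.74% of all genes) and 1 lower (6.59%). Lif rose by 5.43 ± 0.29 (adjusted p = 1.21e-10), Osmr by 4.38 ± 0.19 (adjusted p = 8.46e-12), Clcf1 by 3.84 ± 0.22 (adjusted p = 2.80e-10) and Il6ra by 3.19 ± 0.28 (adjusted p = 5.94e-08). Stat3 rose by 1.64 ± 0.10 (adjusted p = 6.26e-10), Socs3 by 1.39 ± 0.21 (adjusted p = 4.21e-05) and Il6 by 1.21 ± 0.20 (adjusted p = 7.69e-05). Lifr fell at -1.65 ± 0.13 (adjusted p = 1.17e-08), and Il6st was at 0.37 ± 0.10 (adjusted p = 0.00645). Among other pathway genes, 7 of 29 rose and 0 fell by limma. By DESeq2 these were 7 and 0 of 37, and by edgeR 8 and 0 of 29. An unadjusted p under 0.05 was reached in limma by 15 of the 29 and, among all genes, by 6185 of 12269. The same background applies to the 18 STAT3 targets given below. The 7 included Stat5a at 2.52 ± 0.30, Cntf at 1.97 ± 0.37, Stat2 at 1.27 ± 0.16 and Il11, which had 1 or 2 reads at rest and a ratio of summed reads of 15.1 (95% counting interval 5.27 to 59.2). Cntf lost its call without quiescent library 1 or 2 or activated library 1 or 2, at 1.90, 1.83, 1.92 and 1.88 (adjusted p range over tools and left-out libraries 1.08e-06 to 0.00286), and Il11 without quiescent library 1 or activated library 2. Among STAT3 targets, 16 of 23 rose and 0 fell by limma and edgeR, and 16 of 25 and 0 by DESeq2 (18 at an unadjusted p under 0.05 in limma), led by Lcn2 at 6.16 ± 0.14, Timp1 at 5.75 ± 0.21, Bcl3 at 5.06 ± 0.28, Cebpd at 4.78 ± 0.13 and Ier3 at 3.86 ± 0.10. Il11 and Cntf among the 7 pathway genes and Bcl3 among the STAT3 targets were below 10 on average at rest and add no support. Over genes with 10 in each group, 5 of 26 pathway genes and 15 of 22 targets rose and 0 fell, against 5.9% of all genes called higher and 6.24% lower, and 8 of 9 members were called. The sum of oligodendrocyte lineage markers was 5474 ± 377 TPM at rest and 1548 ± 68 TPM after activation in these cells. That of endothelial markers was 2.78 ± 0.106 and 32.1 ± 1.77 TPM, and that of pericyte and fibroblast markers 6.19 ± 0.516 and 37.3 ± 2.41 TPM. Flt1 led the endothelial sum in all 6 SOD1G93A libraries, with Cldn5 and Cdh5 at 0 reads. Pdgfrb led the pericyte and fibroblast sum at rest and Lum did after activation. The sum of microglia markers was 592 ± 128 TPM at rest and 337 ± 70.8 TPM after activation, without overlap. The part of all these markers in the response was not tested.

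The difference between the responses of the genotypes was tested in the same fit, and limma called 0 of 9 members and 0% of all genes. DESeq2 and edgeR called 0 members as well, with 20 and 4 of all genes. Each tool had 3 members at an unadjusted p under 0.05, and among all genes limma had 1018, DESeq2 802 and edgeR 1070. In limma the 3 members were Il6 at -1.34 ± 0.28 (limma adjusted p = 0.0583), Socs3 at -0.77 ± 0.30 (limma adjusted p = 0.507) and Lifr at -0.41 ± 0.18 (limma adjusted p = 0.558). Over the alternatives, the adjusted p ranged from 0.0333 to 0.273 for Il6, 0.286 to 0.841 for Socs3 and 0.316 to 0.897 for Lifr. For Il6, the SOD1G93A mean was above WT at rest and below it after activation. The other differences were 0.04 for Lif, -0.07 for Clcf1, 0.64 for Il6ra, 0.18 for Il6st, 0.12 for Osmr and 0.14 for Stat3, and those for Lif, Clcf1 and Osmr changed sign when single libraries were left out. Without WT quiescent library 3, Lif was at -0.45, Clcf1 at -0.32 and Osmr at -0.17, and without WT quiescent library 1, Lif was at 0.44 and Socs3 at -0.44. Among 29 other pathway genes and 23 STAT3 targets limma called 0, with 6 and 8 at an unadjusted p under 0.05. DESeq2 called 1 of 37 pathway genes and 0 of 25 targets, and edgeR 1 of 29 and 0 of 23.

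In microglia with LPS, limma called 0 of 10 members between SOD1G93A and WT cells and 0% of all 10679 genes, and DESeq2 and edgeR called 0 members, with 3 and 0 of all genes. An unadjusted p under 0.05 was reached by 4 members in limma and by 3 in DESeq2 and in edgeR, and among all genes by 930, 661 and 881. The 4 members in limma were Lif at -0.67 ± 0.27 (limma adjusted p = 0.573), Clcf1 at -0.53 ± 0.23 (limma adjusted p = 0.573), Socs3 at -0.43 ± 0.16 (limma adjusted p = 0.571) and Il6 at -0.40 ± 0.16 (limma adjusted p = 0.573). SOD1G93A library 3, which stood apart from its group, had the lowest value of the 6 libraries for each of these genes. Without it, the differences were -0.31 for Lif, -0.26 for Clcf1, -0.24 for Socs3, -0.22 for Il6 and -0.12 for Osm. Osm was at -0.34 ± 0.17, Stat3 at -0.21 ± 0.12, Osmr at -0.22 ± 0.57, Il6ra at 0.10 ± 0.21, Lifr at 0.01 ± 0.30 and Il6st at -0.02 ± 0.21. Osmr was at 0.39 without SOD1G93A library 3, and without WT library 1, which also stood apart, Il6ra was at -0.15 and Il6st at -0.29. The sums of 3 marker lists differed between these groups without overlap. They were 10.02 ± 0.635 TPM in WT and 6.45 ± 1.07 TPM in SOD1G93A cells for peripheral macrophages and monocytes, led by Ly6c2, 10.3 ± 1.4 and 7.33 ± 1.22 TPM for pericytes and fibroblasts, and 88.8 ± 3.03 and 106 ± 8.68 TPM for the oligodendrocyte lineage. Lyve1 and Kcnj8 were at 0 reads in all 6 libraries, and the part of these markers in the values was not tested. Of 30 other pathway genes and 25 STAT3 targets tested by limma and edgeR, and the 37 and 25 tested by DESeq2, 0 were called by any of the 3 tools. Those at an unadjusted p under 0.05 were 4 and 7 in limma, 4 and 10 in DESeq2, and 3 and 8 in edgeR.

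Genes with the most similar pattern were sought among 12379 genes by Pearson's r of log2(mean count + 1) over the 7 condition means. For Il6 they were Saa3 (r = 0.999), Socs3 (r = 0.997) and Ptges (r = 0.997), and for Socs3 they were Xcr1 (r = 0.999), Ptges (r = 0.998) and Il6. The nearest to Lif were Cxcl1 (r = 0.996), Layn (r = 0.995) and Ccl2 (r = 0.994). Among the genes nearest to Osm were Ikbkb (r = 0.999) and Igsf6 (r = 0.998). The receptor gene Osmr was nearest to Dhrs1 (r = 0.997), Zfp874a (r = 0.994) and Dlg1 (r = 0.994), and Il6ra to Rtn4 (r = 0.997), Acvr1 (r = 0.994) and Osgin1 (r = 0.994). With 7 points and this many genes, such values of r describe these conditions only.

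Lif and Osm are neighbours on chromosome 11, 16530 bases apart in the annotation. Promoter sequences from RefSeq (GRCm38.p6), 250 bases before to 50 after a start, were found for 8 of the 10 members, in 9 entries because Lifr had more than 1. They were not found for Osm and Clcf1. They were searched on both strands for TTCNNNGAA (STAT), GGGNNTTTC (a κB-like motif), TGANTCA (AP-1) and TTNNGNAA (C/EBP-like), and these letters were chosen after the promoters had been seen. Of 32851 promoters, 8.3% held the STAT motif, 4.36% the κB-like motif, 7.81% the AP-1 motif and 40.7% the C/EBP-like motif.

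Among the 9 entries of the members, the STAT motif was found in Socs3, the κB-like motif in Il6, the AP-1 motif in Il6, Lif and Osmr, and the C/EBP-like motif in Il6, Il6ra and Stat3. The Osmr match lies after the RefSeq start, and all bases of that entry fall in annotated exons. No match was found in Il6st or in either entry of Lifr. Shown are Il6 and Socs3, which rose most with LPS, as the longest stretch before the RefSeq start that lies outside annotated exons of the gene. The Il6 stretch is chr5:30012864-30013113 (plus strand) and the Socs3 stretch is chr11:117969452-117969616 (minus strand), which lies within the annotated Socs3 gene (chr11:117966079-117970047). Both are printed 5′ to 3′ with matches in capitals, which in order are AP-1, C/EBP-like and κB-like in Il6 and STAT in Socs3. A match of letters is a description and not a binding site.
Il6: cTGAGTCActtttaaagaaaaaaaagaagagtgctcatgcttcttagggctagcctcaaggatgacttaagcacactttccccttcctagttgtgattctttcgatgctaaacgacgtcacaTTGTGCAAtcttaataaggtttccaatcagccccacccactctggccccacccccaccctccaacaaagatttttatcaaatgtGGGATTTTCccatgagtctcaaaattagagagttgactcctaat
Socs3: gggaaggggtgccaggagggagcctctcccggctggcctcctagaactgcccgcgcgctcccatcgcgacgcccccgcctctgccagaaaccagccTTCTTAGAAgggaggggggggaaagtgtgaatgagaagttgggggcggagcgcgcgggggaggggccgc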

How the data were processed

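The authors aligned reads to mm10 with STAR 2.7.3a and counted them with RSEM, per the series' design text and the submitters' notes, and the deposited signal in 6 tables is gene counts divided by size factors. The tables also hold the authors' fold changes and p-values from DESeq2, which were not used. Whole counts, called reads throughout, were recovered by dividing by the value of 1 count, and 100% of values came out whole (tolerance 1e-06). The sources used here do not say whether the counts from RSEM had been rounded to whole numbers. Tests used limma 3.58.1 (R 4.3.3) on log2(normalized count + 1), within a table or, for joint fits, on recovered reads with new size factors. As alternatives on the recovered reads, DESeq2 1.42.0 called 1522 genes and edgeR 4.0.16 called 1477 in activated WT astrocytes, and 2398 and 2357 in WT microglia with LPS, against 1424 and 2263 with limma. TPM used summed exon lengths of the annotation, in which 23379 genes matched by symbol, 650 by an older symbol and 382 not at all. The fits were tested on simulated reads. All 10 members were named, and of each other list at most 5 called genes per direction in a comparison, taken by size of the fold change, with the 3 genes of most similar pattern for 6 members, except that some of these are not reported here. The members and lists were chosen with earlier results of these data known.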

Additional observations from a re-analysis of the deposited data

Results flagged for a closer look

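The responses of WT microglia to LPS and of WT astrocytes to IL-1α, TNFα and C1q differed for 4 of the 10 genes by the test of the difference itself, against 15.2% of all 12334 genes tested (6.73% higher and 8.44% lower). The difference in log2 fold change was 4.74 for Il6, 3.79 for Socs3, −3.89 for Il6ra and −4.29 for Osmr. The agents differed between the cell types, so agent and cell type cannot be told apart.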

How the results depend on the processing

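In all 10 comparisons, 95 log2 fold changes of members were estimated, of which 38 were called. Under up to 14 alternatives and with each library left out, 0 of the 38 called values changed sign, 6 of those still tested lost their call in at least 1 setting and 7 others gained one at the same limits, as named in the report. Members left untested by a stricter filter are not among those 6. Where every library had to reach 10, members called were 7 in place of 8 in WT astrocytes, 5 of 7 in WT microglia, 6 of 8 in SOD1G93A astrocytes and 3 of 4 for the difference of responses. TMM scaling moved 1 of 70 levels by more than 1 SD, that of Socs3 in WT microglia with LPS, to 7016. A depth term was tried only within tables and could not be fitted where depth split the libraries as the groups did. DESeq2 and edgeR were run on the recovered reads.

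The numbers of the libraries were not taken to pair them, since only 2 of 63 pairs of same-numbered libraries had a correlation of deviations over 0.1 (range −0.383 to 0.125). With the number as a replicate block, the members called were 8 in activated WT astrocytes, 7 in WT microglia with LPS, 0 for each of the 3 genotype comparisons and their interaction, 8 in activated SOD1G93A astrocytes, 4 for the difference of responses, 5 between quiescent and 6 between stimulated cell types. Other pathway genes called with the block were 4 in WT astrocytes and 11 in WT microglia.

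Counts changed as follows, and where a stricter filter or a looser limit was used the number of genes that could pass changed by construction. Pathway genes called in activated WT astrocytes were 4, and 2 where every library had to reach 10, 2 where each group had to on average, which was added after seeing the data, 7 at an adjusted p limit of 0.05, 17 at that limit and any fold change, and 2 to 6 with single libraries left out. In WT microglia with LPS, they were 11, then 7 with either filter, 18 at any fold change and 10 to 13 without single libraries. Members called between the genotypes in activated astrocytes were 0, and 5 at any fold change. The share of all genes at the looser limits in this paragraph was not counted. Members called between quiescent cell types were 5, then 3 with either filter, 8 at any fold change and 4 to 6 without single libraries, and between stimulated cell types 6, then 3 with every library at 10 and 5 to 6 without single libraries. Leaving out single libraries gave 5 to 8 members in WT microglia with LPS and 4 to 5 for the difference of responses, 8 in astrocytes of either genotype and 0 in the remaining comparisons.

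Of the uncalled values, 19 changed sign in at least 1 setting, the largest of which was 0.34 in size, and the cause was not tested. In WT microglia with LPS against rest, Osmr (−0.055) was 0.011 with quantile normalization, 0.060 by DESeq2, 0.15 by edgeR and −0.32 to 0.21 without single libraries. Il6st (−0.13) was −0.28 to 0.14 without single libraries. Between the genotypes in quiescent astrocytes, Socs3 (0.25) was −0.068 to 0.45 without single libraries. Between the genotypes in activated astrocytes, Il6st (0.041) was −0.0049 with quantile normalization. Lifr (0.033) was −0.062 to 0.14 without single libraries. Between the genotypes in microglia with LPS, Osmr (−0.22) was 0.0046 by edgeR and −0.48 to 0.39 without single libraries. Il6st (−0.016) was 0.10 with a depth term and −0.29 to 0.14 without single libraries. Lifr (0.0087) was −0.055 with a depth term and −0.22 to 0.21 without single libraries. Il6ra (0.098) was −0.15 to 0.25 without single libraries. For the genotype difference in the astrocyte response, Clcf1 (−0.071) was 0.016 with quantile normalization, 0.075 by DESeq2, 0.11 by edgeR and −0.32 to 0.15 without single libraries. Lif (0.035) was −0.45 to 0.44 without single libraries. Osmr (0.12) was −0.17 to 0.29 without single libraries. For the LPS response minus the cytokine response, Clcf1 (−0.049) was 0.043 with a pseudocount of 0.5 and −0.60 to 0.24 without single libraries. Lifr (−0.17) was 0.39 with quantile normalization and −0.36 to 0.063 without single libraries. Lif (−0.17) was 0.18 by DESeq2, 0.17 by edgeR and −0.67 to 0.24 without single libraries. Between the quiescent cell types, Il6st (−0.089) was 0.041 with TMM scaling. Stat3 (0.34) was −0.15 with quantile normalization. Between the stimulated cell types, Lif (0.27) was −0.15 with quantile normalization. Il6ra (0.11) was −0.033 to 0.35 without single libraries. Low reads limit Osm and Lif in quiescent astrocytes and Osmr and Clcf1 in quiescent microglia, where values rest on few reads. Other values do so as well. Among them are Osm in activated astrocytes, Lif in quiescent microglia, Osmr in microglia with LPS, and Il6 and Il6ra in quiescent astrocytes. Called values that moved by over 1.5 times or lost or gained a call are named beside their results.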
